A study of Rattus norvegicus with 9 samples.

Results

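PLN and RYR2 are 2 of the 22512 genes in the deposited expression table of rat cardiac fibroblasts (CFs), and they were taken from it by their symbols in all 9 libraries. They were picked because their values in these libraries were already known to differ between groups. Their values are therefore a description, and no test was applied to them. CFs make the collagen matrix of the heart. They came from neonatal rats, of a strain that the sources used here do not give. They were isolated by differential adherence and grown to the second or the third passage in medium with serum. The blank group (3 libraries) received no drug. The AngII group (3 libraries) received angiotensin II, a peptide hormone used to activate fibroblasts, at 0.1 µM for 72 h. The vericiguat + AngII treatment group (3 libraries) received vericiguat, a stimulator of soluble guanylate cyclase, at 1.0 µM for 24 h and then AngII at 0.1 µM for 72 h, according to the sample labels. The methods describe the reverse order for a migration assay and give no times for the sequenced cells. No group received vericiguat alone, so the drug can be compared only in the presence of AngII. The labels do not say that replicates came from separate cultures, so p-values measure only the spread between these libraries, which may be technical.

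Heart muscle contracts when calcium leaves an internal store, the sarcoplasmic reticulum, and relaxes when calcium is pumped back. RYR2 encodes the cardiac ryanodine receptor, the channel through which the store releases calcium. ATP2A2 encodes SERCA2, the pump that refills the store, and PLN encodes phospholamban, a small membrane protein that slows this pump until it is phosphorylated by protein kinase A, CaMKII or the cGMP-dependent kinase. CASQ2 binds calcium inside the store, TRDN and JPH2 hold the release site together, and SLC8A1 and CACNA1C carry calcium across the cell surface. Both PLN and RYR2 are known chiefly as genes of cardiac muscle.

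Expression was deposited as FPKM, fragments per kilobase of gene per 1000000 mapped fragments, without fragment counts, so the depth behind each value is unknown. In the blank and AngII groups 96.7% to 97.9% of summed FPKM belonged to 13 entries named KEF51, against 45.3% to 52.3% in the treatment group. Each level was therefore also expressed per 1000000 units of the summed FPKM of the other genes in its library (the relative level). A single further gene, ADORA1-2, held 59.7% to 90.0% of that remainder in the blank and AngII libraries and 17.1% to 27.8% in the treated ones. Relative levels were for that reason also computed with the 10 highest genes left out of the denominator. The second blank library stood apart, with 260 genes at FPKM 1 or more against 865 and 1542 in the other blank libraries. The processing notes name OryCun2.0, a rabbit assembly, while the labels give rat. Its part in the values was not tested. Of the fibroblast markers, COL1A1 and COL3A1 are not listed by symbol, and DCN, a matrix proteoglycan of fibroblasts, had FPKM of 14.6, 1.21 and 8.37 in the blank libraries. The other listed fibroblast markers were lower there. The collagen gene COL1A2 had FPKM of 0.698, 0.060 and 0.444, LUM 7.92, 0.409 and 2.95, and FN1 1.48, 0.023 and 0.831.

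Short stretches upstream of both genes are shown because they differ in base composition. They are the 250 bases before the annotated starts in the RefSeq rat assembly GRCr8, on the plus strand. The Pln window lies at chr20:33172244-33172493 and the Ryr2 window at chr17:63081277-63081526, and each is promoter sequence upstream of the first annotated exon. Capitals mark matches, on either strand, to the E-box CANNTG or the GC box GGGCGG.
Pln: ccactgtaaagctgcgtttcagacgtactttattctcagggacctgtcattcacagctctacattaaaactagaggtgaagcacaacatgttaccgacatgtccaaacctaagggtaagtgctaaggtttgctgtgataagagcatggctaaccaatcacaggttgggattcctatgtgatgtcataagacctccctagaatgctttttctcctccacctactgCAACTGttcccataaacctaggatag
Ryr2: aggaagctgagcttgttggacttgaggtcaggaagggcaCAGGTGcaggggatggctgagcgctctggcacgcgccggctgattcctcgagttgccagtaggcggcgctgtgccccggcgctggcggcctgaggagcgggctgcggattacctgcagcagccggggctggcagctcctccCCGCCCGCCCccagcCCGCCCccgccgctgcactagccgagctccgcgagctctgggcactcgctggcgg
The Pln window was 44% G and C with 3 CpG dinucleotides, and 23.8% of 33469 rat promoters of this length had a lower G and C content. In the Ryr2 window 72% of bases were G or C, with 23 CpG dinucleotides, and 94.0% of promoters had a lower content. The medians over all promoters were 51.2% and 5 CpG dinucleotides. Pln held 1 E-box, 26 bases before the start, and no GC box. Ryr2 held 3 GC boxes on the minus strand, 70, 66 and 55 bases before the start, of which the first pair overlap, and 1 E-box 211 bases before it. Of all promoters, 65.5% held an E-box and 30.5% a GC box. Neither window held TATAAA (in 12.9% of promoters), the GATA motif AGATAA (10.3%), the M-CAT motif CATTCC (12.1%), the MEF2 motif (3.41%) or the core TGACG of the cAMP response element (18.2%). These matches describe the letters only. The rat windows were not checked against the OryCun2.0 gene models behind the FPKM values.

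PLN was detected in every library and was highest in the treatment group. Its FPKM was 3.29, 5.36 and 6.51 in blank, 32.6, 7.57 and 25.8 in AngII and 1150.0, 632 and 725 in treated libraries. Every AngII library lay above every blank library, but the second AngII library exceeded the highest blank library by only 1.16-fold. All treated libraries lay far above both other groups. The group means were 5.05 ± 1.63, 22.0 ± 13.0 and 835 ± 276 (SD, n = 3 each). PLN reached FPKM 1 in all 9 libraries, which 200 of the 10895 tested genes other than KEF51 did (1.84%) and none of the 48 other listed calcium genes did.

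RYR2 was close to the lowest values above 0 in the blank libraries and was highest in the treatment group. Its FPKM was 0.018, 0.010 and 0.011 in blank, 0.131, 0.225 and 0.117 in AngII and 31.6, 21.9 and 23.3 in treated libraries. The 3 groups did not overlap, and the lowest AngII library exceeded the highest blank library by 6.5-fold. The group means were 0.013 ± 0.00436, 0.158 ± 0.0587 and 25.6 ± 5.26 (SD, n = 3 each). The deposited values carry 3 decimals, so a blank value near 0.010 is known to 2 digits only, and without counts it cannot be told how many fragments it rests on. RYR2 passed FPKM 1 only in treated libraries, a pattern shared by 76.9% of the tested genes other than KEF51.

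**Figure D1:**
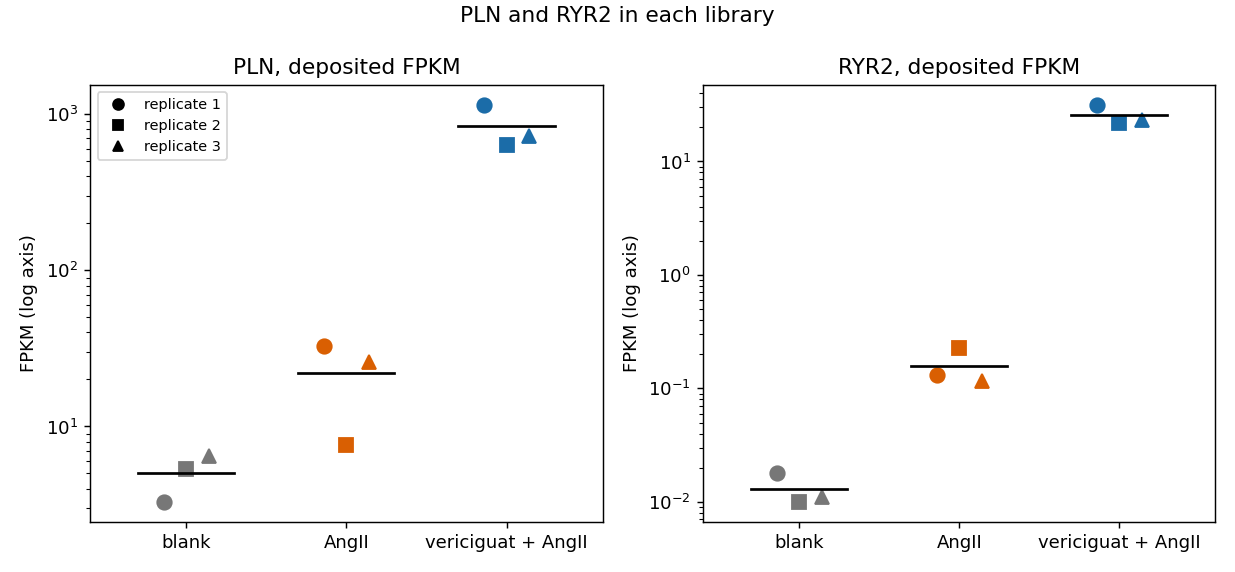
FPKM of PLN and RYR2 on a log axis in the blank, AngII and treated libraries, with 1 point per library (shape gives the replicate number) and a black line at each group mean. PLN runs from 3.29 to 1150 and RYR2 from 0.010 to 31.6, and the treated libraries are the highest for both genes.

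Within the AngII group the genes did not run in the same order. PLN was lowest in the second AngII library (7.57) and RYR2 highest there (0.225). Across the tested genes other than KEF51, this library was the highest of the AngII group for 47.5% and the lowest for 20.2%. MYH6 and MYH7, heavy chains of the cardiac sarcomere, were likewise highest there, with FPKM of 2.68, 44.9 and 4.67 for MYH6 and 9.38, 55.7 and 20.7 for MYH7 in the AngII libraries. Among the other listed cardiomyocyte markers, TTN was also highest in the second AngII library (0.147, 0.779 and 0.169). DES was highest in the third AngII library (3.50, 5.29 and 6.55). Of the AngII libraries, NPPA was above 0 only in the third (0.229). In the treatment group both PLN and RYR2 were highest in the first library and lowest in the second.

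Relative to the other genes, the gap between groups was smaller for both genes. The relative level of PLN was 106, 148 and 172 in blank, 713, 131 and 479 in AngII and 2698, 1473 and 1670 in treated libraries. The second AngII library fell within the blank range, so these groups overlapped, while the treated libraries were above all others. The means were 142 ± 33.5, 441 ± 293 and 1947 ± 657 (SD, n = 3 each).

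RYR2 kept separate groups on this scale. Its relative level was 0.581, 0.276 and 0.292 in blank, 2.86, 3.91 and 2.17 in AngII and 74.1, 51 and 53.7 in treated libraries. The means were 0.383 ± 0.172, 2.98 ± 0.874 and 59.6 ± 12.6 (SD, n = 3 each), with no overlap among the 3 groups.

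**Figure D2:**
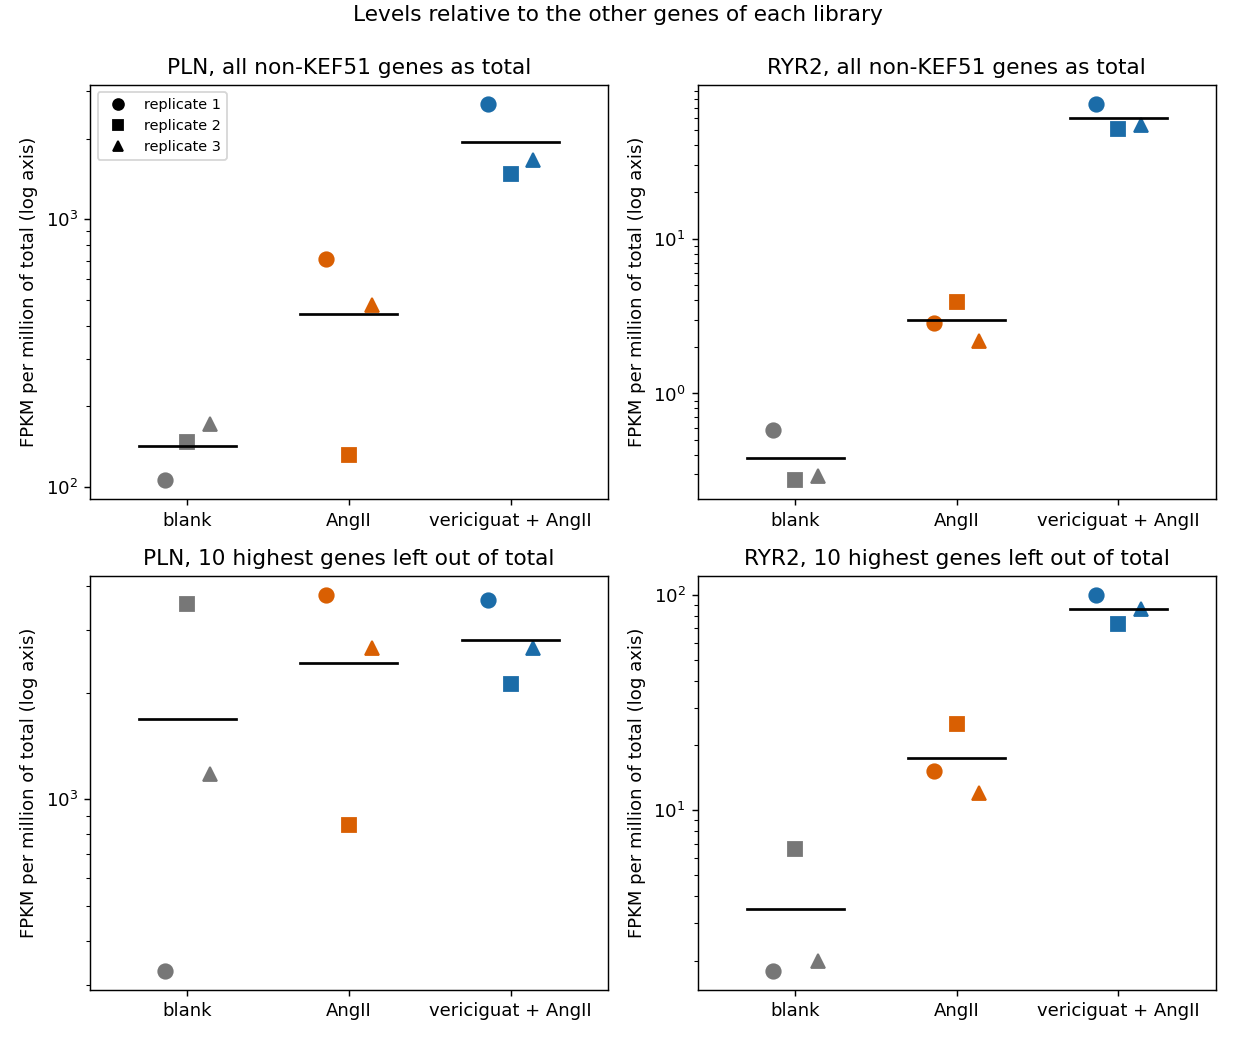
Levels of PLN and RYR2 per 1000000 units of the summed FPKM of the other genes, on log axes, with all such genes in the denominator and with the 10 highest left out; points are libraries (shape gives the replicate number) and black lines are group means. With the 10 highest genes left out the PLN groups overlap, with means of 1685, 2431 and 2811, while RYR2 steps upward from 3.47 to 17.5 and 86.4.

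Leaving the 10 highest genes out of the denominator removed the separation of the groups for PLN. PLN was then 329, 3548 and 1180 in blank, 3780, 847 and 2666 in AngII and 3656, 2109 and 2670 in treated libraries. The second blank library, which has the fewest detected genes, lay among the treated values. Treated over AngII means stood at 1.16-fold for PLN, against 4.41-fold with these genes in the denominator and 38.0-fold on raw FPKM. The 1.16-fold changed direction with single libraries, to 0.983-fold without the first treated library and 0.872-fold without the second AngII library. Without the second blank library PLN was 3.22-fold higher in AngII than in blank, against 1.44-fold with it, and 3.73-fold higher in treated than in blank, against 1.67-fold, and treated and blank no longer overlapped. RYR2 was 1.80, 6.62 and 1.99, then 15.2, 25.2 and 12.1, then 100.4, 73.0 and 85.8 in the same order of libraries. Its groups stayed apart, with means 5.03-fold higher in AngII than in blank and 4.94-fold higher in treated than in AngII. Without the second blank library the first of these became 9.22-fold.

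Within a library PLN ranked near the top in every group, whereas the rank of RYR2 differed by group. Among genes other than KEF51, PLN ranked 443, 48 and 126 from the top in blank, 44, 216 and 79 in AngII and 34, 91 and 61 in treated libraries. It stood above 95.3% to 99.8% of the genes above 0 in every library. RYR2 stood above 1.89% to 2.91% of the genes above 0 in blank, 40.7% to 53.8% in AngII and 87.8% to 90.8% in treated libraries. Set against the median gene above 0, RYR2 FPKM was 0.0807 to 0.141 times that median in blank, 0.718 to 1.15 times in AngII and 6.86 to 9.02 times in treated libraries. PLN was 14.8 to 75.5, 38.6 to 235 and 198 to 328 times the median in the same groups. The number of genes above 0 differed among groups (5498 to 9310, 9902 to 10425 and 16445 to 16751), and a rank counts only those genes.

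Ratios of FPKM within a library do not depend on the denominator, and they are per length. PLN exceeded RYR2 by 183, 536 and 591 times in blank, by 249, 33.6 and 221 times in AngII and by 36.4, 28.9 and 31.1 times in treated libraries. All treated ratios lay below every blank ratio, and the second AngII library (33.6) fell within the treated range. PLN relative to its target pump ATP2A2 was 2.84, 37.5 and 10.5 in blank, 15.9, 1.49 and 19.8 in AngII and 4.10, 3.54 and 4.96 in treated libraries. The treated ratios lay inside the range of both other groups and spread least.

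RYR2 was compared in the same way with its partners and with sarcomere genes. Its ratio to CASQ2 was 0.0411 to 0.0692 in blank, 0.0576 to 0.0887 in AngII and 0.109 to 0.147 in treated libraries, so the treated libraries lay above both other groups. Against TRDN, the protein that links the channel to CASQ2, RYR2 was 0.0625 to 0.161 in blank, 0.0250 to 0.106 in AngII and 1.23 to 1.75 in treated libraries, again with the treated group apart. The ratio to ATP2A2 was 0.0155 to 0.0699 in blank, 0.0442 to 0.0895 in AngII and 0.113 to 0.159 in treated libraries, so the treated group was apart and the others overlapped. Against the giant sarcomere protein TTN the groups overlapped (0.270 to 0.409, 0.289 to 0.891 and 0.290 to 0.470), as they did against MYH7 (0.00449 to 0.00723, 0.00404 to 0.0140 and 0.00600 to 0.00841). RYR3, another ryanodine receptor, was at or below 0.034 FPKM in the blank and AngII libraries, and RYR2 exceeded it by 4.03 to 22.5 times in AngII and by 38.2 to 69.9 times in treated libraries. In the blank libraries RYR2 was 0.529 and 0.917 times RYR3, which was listed at 0 in the remaining one.

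**Figure D3:**
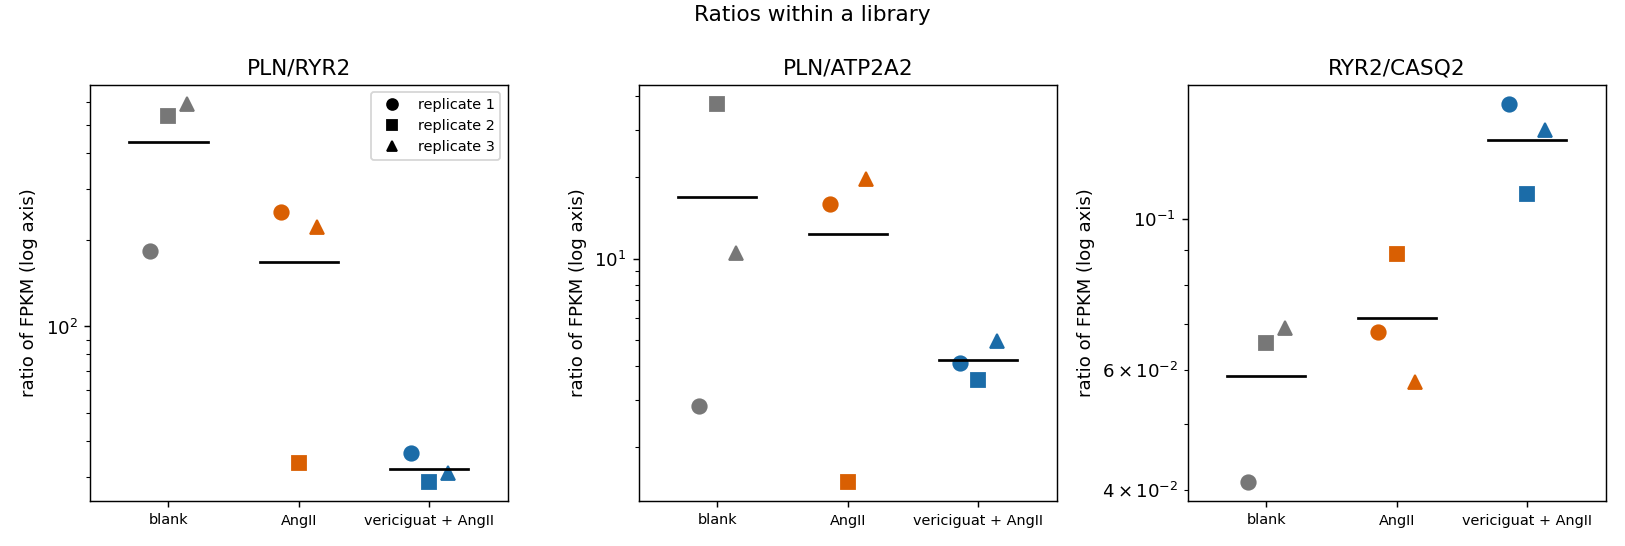
Ratios of FPKM within each library on log axes, for PLN over RYR2, PLN over ATP2A2 and RYR2 over CASQ2; points are libraries (shape gives the replicate number) and black lines are group means. The treated libraries sit at 28.9 to 36.4 for PLN over RYR2, between the extremes of both other groups for PLN over ATP2A2, and above all others for RYR2 over CASQ2.

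The size of each change was then set beside that of all tested genes, those that reached FPKM 1 in 3 or more libraries. In AngII over blank, PLN means differed by 4.36-fold (log2 2.12) and RYR2 means by 12.1-fold (log2 3.60), against a median log2 ratio of 0.58 over 8671 genes. Of these genes 82.0% had a lower ratio than PLN and 95.5% a lower ratio than RYR2. Groups in which all AngII libraries exceeded all blank libraries made up 19.8% of tested genes on raw FPKM and 13.5% on the relative scale. In treated over AngII, PLN was 38.0-fold (log2 5.25) and RYR2 162-fold (log2 7.34) higher, against a median of 5.52 over 10290 genes, so that PLN lay 0.28 below the median gene and RYR2 lay 1.82 above it. The place of PLN relative to the median rested on single libraries. Between treated and AngII it lay 0.23 above the median without the first AngII library and 0.86 below it without the second. Without the first blank library, its distance above the median fell from 1.54 to 0.68 between AngII and blank and from 1.26 to 0.41 between treated and blank. Every treated library exceeded every AngII library in 99.7% of tested genes on raw FPKM and in 90.5% on the relative scale. In treated over blank the folds were 165 (log2 7.37) for PLN and 1968 (log2 10.94) for RYR2, against a median log2 ratio of 6.11 over 8899 genes, and 37 of these genes lay above RYR2. Genes at 0 throughout a compared group have no ratio and are not ranked. The treated group was higher without overlap in 99.6% of tested genes on raw FPKM and in 84.3% on the relative scale. Without the second blank library the folds over blank were 170.5 for PLN and 1764 for RYR2 in the treatment group and 4.49 and 10.9 in the AngII group. The comparisons share groups, so they are not separate evidence.

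**Figure D4:**
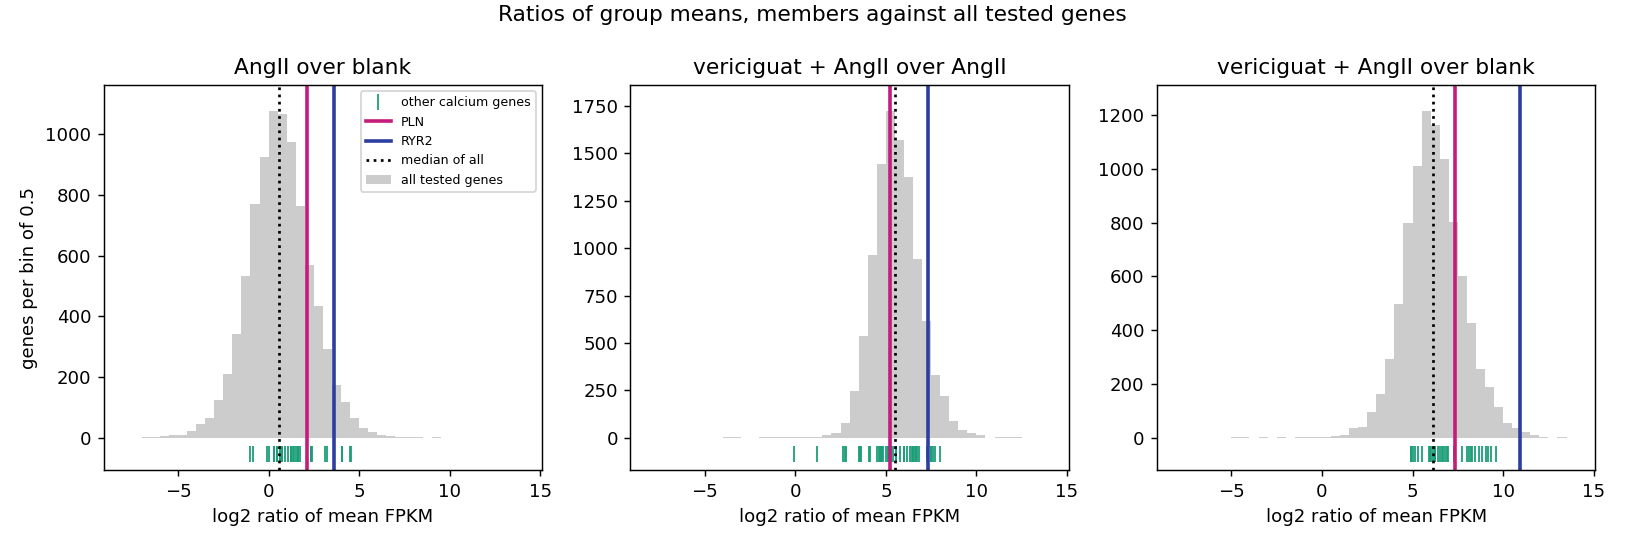
Histograms of the log2 ratio of mean FPKM between groups for all tested genes with a ratio (grey, bins of 0.5), with the median dotted, PLN in magenta, RYR2 in blue and the other listed calcium genes as green ticks. RYR2 lies right of the median in each comparison, by 3.02, 1.82 and 4.83, and PLN lies 1.54 right, 0.28 left and 1.26 right of it, where the 0.28 left becomes 0.23 right without the first AngII library and the 1.54 and 1.26 become 0.68 and 0.41 without the first blank library.

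On the scales used for testing, PLN differed by 1.75 between AngII and blank, 5.35 between treated and AngII and 7.10 between treated and blank in log2(FPKM + 1), against medians of 0.06, 2.77 and 2.84 over the tested genes. RYR2 differed by 0.19, 4.50 and 4.70 on that scale, where the added 1 hides most of its change at low FPKM. In log2(relative level + 10), PLN differed by 1.30, 2.36 and 3.66 and RYR2 by 0.32, 2.41 and 2.73, against medians of 0.04, 0.96 and 1.00. Both genes had positive differences under median-ratio scaling and quantile normalization as well. Between treated and AngII, however, PLN differed by only 0.06 under median-ratio scaling, below the median of 0.08 over the tested genes. It was also below the median without the 10 highest genes (0.42 against 0.46), but above it under quantile normalization (0.58 against 0.13). With median-ratio scaling, quantile normalization or the 10 highest genes left out, the PLN groups overlapped in each comparison. Of the 9 combinations of these 3 scalings and the 3 comparisons, RYR2 groups overlapped in the 1 between AngII and blank under quantile normalization. The share of genes higher without overlap was 16.9% between AngII and blank, 29.6% between treated and AngII and 48.2% between treated and blank under median-ratio scaling. It was 13.4%, 24.1% and 37.7% under quantile normalization, and 13.9%, 37.7% and 49% without the 10 highest genes, so separate groups were frequent among all genes.

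The other genes of calcium handling were taken from a list of 106 in 6 role groups. Of these 48 are listed by symbol and 36 reached FPKM 1 in 3 or more libraries. Of the 36, 20 reached FPKM 1 in treated libraries only, so they had to be higher there, and a count of them is no support for a change of the list. Tests used limma on all tested genes, and the threshold for a call was a log2 difference of 1 or more in either direction with a Benjamini-Hochberg adjusted p below 0.05. Between treated and AngII all 36 were called higher on raw FPKM, where 99.6% of all genes were called, and likewise between treated and blank, where 99.4% were called. These shares differ little from the background and say nothing particular about calcium genes.

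On the relative scale 26 of the 36 were called higher between treated and AngII and 0 lower, against 46.4% of all genes called, with a median log2 difference of 1.44 against 0.96. Between treated and blank 28 were called higher and 0 lower, against 48.8% of all genes, with medians of 1.72 and 1.00. Only 13 of the 36 reached FPKM 1 in at least 3 blank or AngII libraries. The others needed the treated libraries to pass the filter, so these counts and medians are no support for a change of the list. With the 10 highest genes left out of the denominator, 5 were higher and 2 lower between treated and AngII (11.2% of all genes called), and 15 higher and 0 lower between treated and blank (26.8%). Median-ratio scaling, which divides each library by its median ratio to the mean library, gave 2 higher and 2 lower between treated and AngII (4.04% of all genes) and 8 higher and 0 lower between treated and blank (9.42%). Quantile normalization, which gives every library the same distribution, gave 3 higher and 2 lower (3.52%) and 9 higher and 0 lower (11.8%).

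Among the uptake genes, ATP2A2 had FPKM of 1.16, 0.143 and 0.620 in blank, 2.05, 5.09 and 1.31 in AngII and 280.3, 179 and 146 in treated libraries. Its relative level was 3.02 ± 0.616 (SE) higher on the log2 scale in treated than in AngII (limma adjusted p = 0.00082). With the 10 highest genes left out it differed by 1.28 and was not called (limma adjusted p = 0.1). SLN, a short relative of PLN that also slows the pump, was at 0 in blank, at 0.327, 0 and 0.398 in AngII and at 2.50, 9.30 and 0.977 in treated libraries, and did not pass the filter. MRLN, another small regulator of the pump, reached 1.20 to 1.34 in treated libraries. PLN therefore had a higher FPKM than both in every library.

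Among the store genes, CASQ2 had FPKM of 0.438, 0.152 and 0.159 in blank, 1.92, 2.54 and 2.03 in AngII and 214, 201 and 173 in treated libraries. It was called higher in treated than in AngII on the relative scale (3.18 ± 0.444 SE, limma adjusted p = 5.82e-05) and also without the 10 highest genes (1.45, limma adjusted p = 0.0361). HRC, which binds calcium next to CASQ2, had FPKM of 0.312, 0.067 and 0.035, then 1.40, 5.30 and 3.07, then 103, 99.1 and 69.1. On the relative scale HRC was 2.24 ± 0.476 (SE) higher in AngII than in blank (limma adjusted p = 0.0438) and 1.74 ± 0.476 (SE) higher in treated than in AngII (limma adjusted p = 0.00521). Without the 10 highest genes, its difference between treated and AngII was -0.05 and was not called. CALR and CALU, calcium-binding proteins of the reticulum in most cells, reached 89.3 to 107 and 20.9 to 24.8 FPKM in treated libraries.

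The release genes were less uniform. JPH2, a protein that joins the store to the cell surface, was at 0 in all blank libraries and in 2 AngII libraries, at 0.254 in the third AngII library, and at 30.1, 14.9 and 19.6 in treated libraries. It passed the filter through the treated libraries alone, so its higher level there, by 2.36 on the relative scale and 2.39 without the 10 highest genes in log2 terms, is given as a description. TRDN had FPKM of 0.288, 0.062 and 0.131 in blank, 1.25, 2.12 and 4.69 in AngII and 18.9, 17.7 and 13.3 in treated libraries. Its direction between treated and AngII depended on the scale: it was called higher on raw FPKM (2.35), differed by -0.19 on the relative scale without a call (limma adjusted p = 0.648), and was called lower without the 10 highest genes (-2.01, limma adjusted p = 0.013). JPH1, the skeletal relative of JPH2, also passed the filter through the treated libraries alone. As a description, its difference between treated and AngII was -0.13 on the relative scale and -1.60 without the 10 highest genes. RYR1, the skeletal release channel, stayed at or below 0.098 FPKM in all libraries and did not pass the filter. FKBP1A, a protein that binds ryanodine receptors and is found in most cells, had FPKM of 9.89, 0.777 and 4.69 in blank, 3.11, 2.49 and 2.74 in AngII and 159.7, 164 and 135 in treated libraries.

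At the cell surface, SLC8A1, the sodium-calcium exchanger, was at 0 in blank, at 0.039, 0.097 and 0.141 in AngII and at 17.0, 5.44 and 9.41 in treated libraries. CACNA1C, the pore of the cardiac L-type channel, was at 0.122, 0 and 0.083, then 0.030, 0.170 and 0.049, then 8.67, 8.26 and 8.84. Both passed the filter through the treated libraries alone. As a description, they lay 1.49 and 1.39 higher in treated than in AngII on the log2 relative scale, and 1.15 and 1.12 higher without the 10 highest genes. Of the role groups, 4 of 7 surface genes, 3 of 3 mitochondrial genes, 4 of 5 store genes, 3 of 6 release genes, 1 of 2 uptake genes and 11 of 13 regulators were called higher between treated and AngII on the relative scale, against 46.4% of all genes. All 7 surface genes and most of the 13 regulators are among the 20 that reached FPKM 1 in treated libraries only. Their counts are therefore no support for a change of these role groups. Under median-ratio scaling 1 release gene and 1 store gene were called higher, and 1 release gene and 1 store gene were called lower. None was called in the other role groups, against 4.04% of all genes called under this scaling.

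The regulators include the kinases that act on PLN and RYR2. PRKACA, the catalytic subunit of protein kinase A, had FPKM of 0.166, 0.072 and 0.226 in blank, 0.096, 0.961 and 0.291 in AngII and 13.5, 11.3 and 10.2 in treated libraries. CAMK2D, the main cardiac CaMKII subunit, had FPKM of 0.132, 0.023 and 0.096, then 0.153, 0.077 and 0.186, then 22.8, 21.2 and 19.8. CAMK2D also passed the filter through the treated libraries alone, and lay higher there than in AngII by 2.23 on the relative scale and 1.73 without the 10 highest genes, in log2 terms. PRKG1, the cGMP-dependent kinase downstream of the enzyme that vericiguat stimulates, had FPKM of 0.047, 0 and 0.011 in blank, 0.013, 0 and 0.016 in AngII and 2.06, 1.52 and 1.74 in treated libraries. The difference of PRKG1 between treated and AngII in log2(relative level + 10) was 0.47, below the size needed for a call. Its mean relative levels were 0.194 in AngII and 4.12 in treated libraries, so the added 10 hides most of this change. Like CAMK2D, PRKACA and PRKG1 passed the filter through the treated libraries alone. PPP1CA and PPP2CA, catalytic subunits of phosphatases, reached 102 to 118 and 48.2 to 87.0 FPKM in treated libraries.

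**Figure D5:**
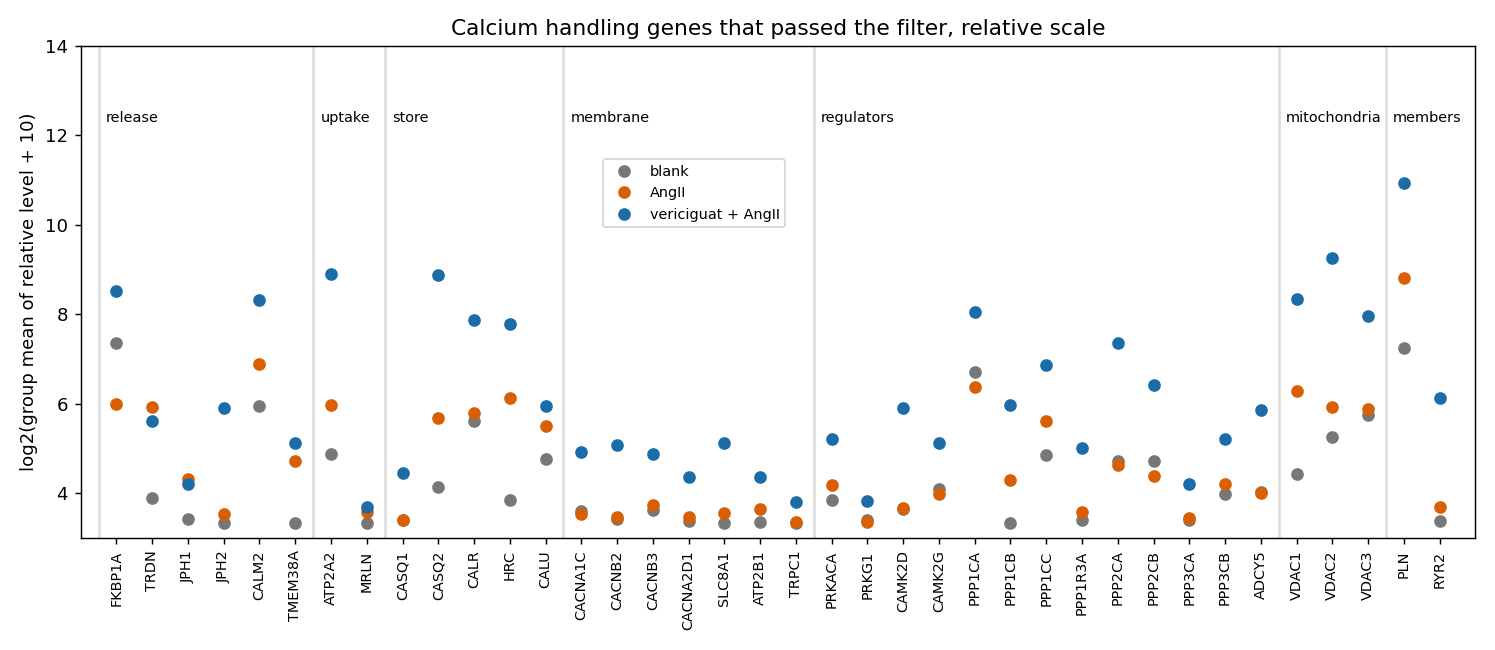
Group means of PLN, RYR2 and the 36 tested calcium genes as log2(mean relative level + 10) in blank, AngII and treated libraries, grouped by role. The treated mean is the highest for PLN and RYR2, and for JPH1 and TRDN the treated and AngII means lie close together.

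Between AngII and blank 4 of the 36 genes were called on raw FPKM, all higher, against 1.55% of all genes: VDAC1 (1.73), TRDN (1.56), CASQ2 (1.34) and HRC (1.80), with limma adjusted p from 0.0308 to 0.0415. No gene of the list was called with the replicate number as a block, with a fit of the compared groups alone or with TPM, where 12, 13 and 9 genes had an unadjusted limma p below 0.05. The median over the 36 genes was 0.20, against 0.06 over all genes. On the relative scale 3 were called, all higher, against 1.37% of all genes: TRDN (1.93), HRC (2.24) and TMEM38A (1.39), with limma adjusted p from 0.0191 to 0.0438. With the block 1 was called, and in a fit of the compared groups alone 0, with 9 genes at an unadjusted limma p below 0.05. None of the 36 was called in this comparison on raw FPKM when the third blank or the third AngII library was left out, with 9 and 12 genes at an unadjusted limma p below 0.05. On the relative scale without the third blank library the count was also 0, with 7 genes at that p, and without the third AngII library it was 1. Leaving out the first blank library changed the counts to 2 on raw FPKM and 6 on the relative scale, and leaving out the second to 4 and 6. With the 10 highest genes left out, 8 were called higher and 1 lower (13.6% of all genes), with quantile normalization 7 higher and 1 lower (10.1%), and with median-ratio scaling 9 higher and 0 lower (8.39%).

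Of the 48 listed calcium genes, 42 were higher in every treated library than in all blank and AngII libraries, against 99.7% of tested genes higher without overlap over AngII and 99.6% over blank. All 9 libraries were above 0 for 17 of the 48, as for PLN and RYR2, and for 34.5% of tested genes other than KEF51. The 48 include 12 genes below the filter, which the shares over tested genes do not, and neither count says anything particular about calcium genes. By the ratio of mean FPKM between treated and blank, 12 of the 33 genes with a ratio exceeded PLN and 0 exceeded RYR2. A ratio needs a mean above 0 in both groups, so the 15 listed genes at 0 in all blank libraries have none over blank. They include JPH2 and PPP1CB, with treated means of 21.5 and 22.7 FPKM, so RYR2 cannot be placed above them. Between treated and AngII, 22 of 42 exceeded PLN and 5 exceeded RYR2, JPH2 having the highest ratio (log2 7.99). Between AngII and blank, 10 of 33 exceeded PLN and 4 exceeded RYR2, with HRC the highest (log2 4.56).

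The genes whose profiles over the 9 libraries were most like PLN on the relative scale, among 1083 genes listed by symbol, were CAV2, H3-3A and AK3. Their root mean square differences from PLN were 0.355, 0.363 and 0.436 after each profile was centred. CAV2 had FPKM of 0.038, 0.266 and 0.174 in blank, 1.73, 0.556 and 1.24 in AngII and 84.7, 64.7 and 80.8 in treated libraries, sharing the low second AngII library with PLN. For RYR2 they were MTRES1, GASK1B and ATOSA, at 0.153, 0.154 and 0.156. GASK1B had FPKM of 0.024, 0.061 and 0.021, then 0.299, 0.546 and 0.265, then 33.9, 23.7 and 30.6, with the second AngII library the highest of its group as for RYR2. MTRES1 (0.224, 0.141 and 0) and ATOSA (0.099, 0 and 0) were instead highest in the first AngII library. The added 10 flattens such low levels in the profiles. PLN and RYR2 lay at 0.788 from each other, which placed RYR2 at rank 64 for PLN and PLN at rank 475 for RYR2. Without the 10 highest genes in the denominator, the nearest genes were ADIPOQ, C1H9orf153 and PSMG1 for PLN and CCDC93, ATP5F1B and CYRIA for RYR2, so the nearest genes changed with the scale.

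Markers of other cell types differed between groups, not all in the same direction as PLN and RYR2. Cardiomyocyte markers (5 of 20 listed: MYH6, MYH7, TTN, NPPA and DES) summed to 1.98 to 8.34 FPKM in blank, 15.7 to 107 in AngII and 3276 to 5378 in treated libraries, and NPPA was at 0 in every blank library. Fibroblast markers (4 of 15 listed) summed to 1.70 to 24.7, 7.09 to 25.7 and 368 to 527. As relative levels the cardiomyocyte sums were 54.5 to 269, 343 to 1851 and 7553 to 12616, and the fibroblast sums were 47.0 to 797, 123 to 562 and 848 to 1236. Endothelial markers (2 of 9 listed) summed to 0.054 to 0.398, 0.083 to 0.421 and 81.3 to 86.2 FPKM, smooth muscle and pericyte markers (2 of 8) to 0.382 to 21.1, 0.300 to 1.20 and 191 to 302, and the macrophage marker CD14 (1 of 8) to 0.151 to 1.14, 0 to 0.202 and 5.16 to 8.56. Mean FPKM was lower in AngII than in blank for ACTA2 (0.381 against 3.94), MYH11 (0.271 against 6.59), CD14 (0.110 against 0.561) and VWF (0.128 against 0.222). FN1 (0.271 against 0.777) and HBA (167 against 238) were lower in AngII as well. KDR, the other listed endothelial marker, was higher in AngII (0.112 against 0). COL1A2, DCN, LUM, HBB2 and the listed cardiomyocyte markers also had a higher mean FPKM in AngII, as had PLN and RYR2. In mean relative level, however, DCN (208 against 242) and LUM (84.1 against 115) were lower in AngII than in blank. As relative levels, smooth muscle and pericyte sums were 10.5 to 681 in blank, 5.56 to 26.3 in AngII and 445 to 696 in treated libraries, and those of CD14 were 4.17 to 36.7, 0 to 4.42 and 12.0 to 19.7, so treated and blank overlapped for both. Endothelial sums were 1.49 to 12.8, 1.81 to 7.31 and 191 to 201, and erythroid sums 4247 to 12834, 4460 to 5752 and 19620 to 34873. Erythroid markers (2 of 8) summed to 154 to 398, 204 to 310 and 8364 to 15127 FPKM. Skeletal muscle markers (2 of 9) stayed at or below 0.240, with MYH4 at 0 in all 9 libraries. The part of these cell types in the levels of PLN and RYR2 was not tested. In bulk RNA, fewer cells of a type and less RNA per cell cannot be told apart.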

How the data were processed

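RNA-seq of 9 libraries of cultured rat CFs was used, with 3 libraries each in the blank, AngII and vericiguat + AngII treatment groups, assigned from the sample labels. The authors deposited a table of FPKM for 22512 genes, made from total RNA with a TruSeq kit. The submitters' processing notes name FastQC 0.11.9, Trimmomatic 0.39, HISAT2 2.2.1, featureCounts 2.0.1 and OryCun2.0. The table gives no counts, so no interval from counting error could be computed. Only 2153 genes are listed under a name that is neither a LOC number nor a KEF51 entry, and genes were matched by symbol. No pair of libraries held identical values.

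PLN, RYR2, the gene lists and the tests were chosen with earlier results of these data known. The genes named were PLN and RYR2, listed calcium genes, the 3 most similar profiles of each and whole marker lists. Calcium genes were tested with limma 3.58.1 in R 4.3.3 (lmFit, then eBayes with trend) on log2(FPKM + 1) and on log2(relative level + 10), with all 9 libraries in 1 fit, no covariate and genes that reached FPKM 1 in 3 or more libraries (10908, or 10895 without KEF51). The added constants understate changes of low genes. Alternatives were other pseudocounts, filters, scalings and fits, and each library left out. The code was tested on simulated data. Other values used Python 3.11.15 and pandas 2.3.3.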

Additional observations from a re-analysis of the deposited data

How the results depend on the processing

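The absence of counts and the weight of KEF51 and ADORA1-2 in the sums limit all levels, and no difference of PLN or RYR2 in mean log2 level changed sign when 1 choice was altered. The sign alone says little, since PLN between treated and AngII fell to 0.0593 with median-ratio scaling, against a median of 0.084 over the tested genes. For genes called of the calcium list between AngII and blank on raw FPKM (4), pseudocounts of 0.1 and 0.01 gave 7 and 9 and no filter gave 2, while a fit of only the compared groups, the replicate block and TPM gave 0 (with 13, 12 and 9 genes at an unadjusted limma p below 0.05). On the relative scale (3), a pseudocount of 1 gave 7 and 100 gave 0 (6 at that p), no filter 1, only the compared groups 0 (9 at that p), and the replicate block 1, and median-ratio scaling, quantile normalization and the 10 highest genes left out gave 9, 8 and 9. The labels do not say whether replicate numbers pair the samples. Deviations of same-numbered libraries correlated at -0.0630 to 0.0665 on raw FPKM and -0.0420 to 0.102 on the relative scale, against -0.0619 to 0.0628 and -0.0875 to 0.0837 for other pairs. These correlations cannot decide it, because the median gene above 0 was at only 0.071 to 0.223 FPKM in blank and 0.139 to 0.196 in AngII libraries. The block moved no other count by over 1.5 times. A mean FPKM of at least 5 left 19 calcium genes to test, of which 19 were called in both raw comparisons of the treatment group (36 in the report) and 17 between treated and AngII on the relative scale (26). There, a pseudocount of 100, median-ratio scaling, quantile normalization and the 10 highest left out gave 10, 4, 5 and 7, and between treated and blank (28) they gave 10, 8, 9 and 15.

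For RYR2 on raw FPKM (AngII over blank, treated over AngII, treated over blank), a pseudocount of 0.1 gave 1.17, 6.64 and 7.81, one of 0.01 gave 2.83, 7.29 and 10.12, and TPM gave 0.11, 4.81 and 4.92. TPM gave 6.32 and 7.84 for PLN in the comparisons of the treatment group. RYR2 on the relative scale gave 1.51, 3.93 and 5.44 with a pseudocount of 1, 0.0368, 0.63 and 0.67 with 100, and 0.42, 0.93 and 1.35 with median-ratio scaling. Quantile normalization gave 0.87 and 1.19 for treated over AngII and over blank, and the 10 highest genes left out gave 1.02 and 1.83 for AngII over blank and treated over AngII. PLN in treated over AngII and over blank was 0.0593 and 1.21 with median-ratio scaling, 0.58 and 1.15 with quantile normalization, and 0.42 and 1.29 without the 10 highest genes, and 3.04 over blank with a pseudocount of 100. The cause was not tested.

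With each library left out in turn, raw calcium gene counts ranged from 0 to 4, 16 to 36 and 16 to 36, and relative counts from 0 to 6, 10 to 26 and 13 to 30. Only 16 list genes could be tested when a treated library was left out. The share of all genes called was not computed for left-out libraries, nor for the other pseudocounts, filters, fits and TPM above. Those counts therefore say nothing particular about calcium genes. With all libraries, 99.6% of all genes were called on raw FPKM between treated and AngII and 99.4% between treated and blank. PLN ranged from 1.36 to 2.35, 4.75 to 5.74 and 6.84 to 7.28 on raw FPKM and from 0.81 to 1.99, 1.67 to 2.85 and 3.40 to 3.83 on the relative scale. RYR2 ranged from 0.15 to 0.22, 4.35 to 4.60 and 4.54 to 4.80, and from 0.27 to 0.37, 2.27 to 2.50 and 2.59 to 2.82.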
